A study of Mus musculus with 6 samples.

Results

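The insulin-like growth factor (IGF) family was measured here as 10 genes: the ligands Igf1 and Igf2, the receptors Igf1r and Igf2r, and the binding proteins Igfbp2, Igfbp3, Igfbp4, Igfbp5, Igfbp6 and Igfbp7. The genes were chosen by name, and each had exactly 1 probe set annotated to its symbol alone, so all 10 were measured among 19936 genes. The family was selected on these data with the large differences of Igfbp3 and Igfbp5 already known. Those 2 genes are therefore described with no test, and the other 8 were tested in a fit across all genes.

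RNA came from 3 mouse endothelial lines derived from embryonic stem cells, each hybridised on 2 whole-transcript arrays. The lines are labelled by their cadherin: both VE-cadherin and N-cadherin in the VE+N line, VE-cadherin in the VE line and N-cadherin in the N line. All lines were seeded at 50000 cells per square centimetre, cultured for 72 h in medium with 20% fetal calf serum and growth supplement, and starved for 18 to 20 h before extraction in medium with 1% albumin. Each cadherin state was 1 line, so a difference that belongs to a cadherin and any other difference between the lines cannot be told apart.

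Cdh2, which encodes N-cadherin, had mean log2 signals of 6.69, 5.86 and 7.67 in the VE+N, VE and N lines. Cdh5, which encodes VE-cadherin, had 7.10, 6.94 and 7.28, and none of its 3 differences passed the test (adjusted p = 0.0917 for VE minus N, 0.366 for VE+N minus N and 0.462 for VE+N minus VE, limma). The Cdh5 probe set thus did not separate the N line from the lines labelled as expressing VE-cadherin. Which part of the gene its probes cover and how the gene was altered are not given in the sources used here, so its signal does not check the labels. None of 12 endothelial markers lay below the median gene on all arrays, and their mean log2 signal was 10.73 to 10.88 in the VE+N line, 10.09 to 10.12 in the VE line and 9.87 to 9.89 in the N line. That order came mainly from Cldn5 and Vwf, at 5.44 and 4.13 in VE+N minus N, while the median difference of the list was 0.19 and Pecam1, Cdh5 and Emcn had their highest means in the N line. The 2 arrays of a line are titled as biological replicates and were separate RNA extracts. No source used here says that they came from separate cultures, so p-values measure the spread between extracts. The median gene of the 6 arrays lay between 5.47 and 5.59 on the log2 scale. Signal over background was not assessed, and a difference that involves a signal below the median gene may be compressed.

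IGF1 and IGF2 are secreted growth factors that act through the tyrosine kinase receptor encoded by Igf1r, which recruits adaptor proteins of the IRS family and the PI3K and AKT kinases. The product of Igf2r, the mannose 6-phosphate receptor, binds IGF2 and carries it to lysosomes with tagged lysosomal enzymes. Secreted binding proteins hold the ligands outside the cell and are cut by proteases that release them, and in vessels both endothelial and mural cells make members of the family.

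The largest differences of the family lay in 2 binding proteins. Igfbp5 and Igfbp3 were both highest in the N line and lowest in the VE+N line. Of the ligands, Igf1 was highest in the VE+N line and lowest in the N line, and Igf2 had the opposite order. Igf1r and Igfbp7 were highest in the VE line and lowest in the VE+N line. To set the promoters of genes with the first and the last of these orders side by side, RefSeq sequence (mouse GRCm38.p6) is shown for Igfbp5 (chr1:72874816-72875115, minus strand), Igfbp3 (chr11:7213874-7214173, minus strand), Igf1r (chr7:67952007-67952306, plus strand) and Igfbp7 (chr5:77407996-77408295, minus strand). Each is 300 bases from 250 before the annotated start of the gene to 50 after it, written 5′ to 3′ on the strand of the gene, with CpG dinucleotides in capitals.
Igfbp5: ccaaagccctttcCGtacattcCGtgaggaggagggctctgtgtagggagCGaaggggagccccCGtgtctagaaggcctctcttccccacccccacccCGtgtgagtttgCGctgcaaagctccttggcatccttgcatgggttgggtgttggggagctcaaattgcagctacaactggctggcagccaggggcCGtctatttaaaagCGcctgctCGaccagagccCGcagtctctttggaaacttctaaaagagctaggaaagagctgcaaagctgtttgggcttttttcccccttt
Igfbp3: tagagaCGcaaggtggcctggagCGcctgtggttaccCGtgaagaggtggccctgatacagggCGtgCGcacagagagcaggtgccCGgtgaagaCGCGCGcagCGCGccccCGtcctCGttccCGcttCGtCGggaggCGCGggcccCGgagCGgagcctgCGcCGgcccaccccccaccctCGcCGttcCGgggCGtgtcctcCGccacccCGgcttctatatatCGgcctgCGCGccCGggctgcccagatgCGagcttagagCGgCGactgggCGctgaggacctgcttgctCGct
Igf1r: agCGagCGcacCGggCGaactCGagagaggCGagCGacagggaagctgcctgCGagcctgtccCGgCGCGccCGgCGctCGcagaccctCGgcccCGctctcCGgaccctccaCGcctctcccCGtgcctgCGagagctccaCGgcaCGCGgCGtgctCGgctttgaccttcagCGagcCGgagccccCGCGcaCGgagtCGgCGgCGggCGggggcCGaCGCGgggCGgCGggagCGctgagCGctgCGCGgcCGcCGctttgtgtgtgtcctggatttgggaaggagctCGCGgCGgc
Igfbp7: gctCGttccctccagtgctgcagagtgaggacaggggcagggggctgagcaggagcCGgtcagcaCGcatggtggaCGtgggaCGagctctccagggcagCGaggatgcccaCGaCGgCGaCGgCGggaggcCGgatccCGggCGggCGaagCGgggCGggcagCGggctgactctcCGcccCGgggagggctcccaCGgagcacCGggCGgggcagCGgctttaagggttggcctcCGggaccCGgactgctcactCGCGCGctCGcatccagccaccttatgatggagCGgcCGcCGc

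The CpG content differed within the first pair. Igfbp5 had 10 CpG dinucleotides at 56.3% GC, near the median promoter with 7 CpG and 52.7% GC, whereas Igfbp3, which shared its order, had 37 CpG at 71.7% GC. Igf1r had 48 CpG at 76.0% GC and Igfbp7 had 33 at 73.3% GC. The 5 motifs were searched on both strands, and no 2 different motifs overlapped: the TATA box TATAAA, the GC box GGGCGG, the CCAAT box CCAAT, the AP-1 site TGANTCA and the FoxO site TGTTTAC. They occurred in 13.6%, 35.7%, 37.4%, 7.81% and 3.65% of all 32851 mouse promoters of this length. The GC box occurred 2 times in the Igf1r promoter and 4 times in that of Igfbp7, and none of the 5 motifs was found in those of Igfbp5 and Igfbp3. Only the letters given were searched, so a variant of a motif was not counted, such as other AT-rich letters before the start. Across all members, the AP-1 letters, with any base at N, were found in the promoters of Igf1 as TGAATCA and Igfbp2 as TGAGTCA. The TATA letters were found in Igfbp4 at −28 from the annotated start and in Igfbp6 on the opposite strand at −148. The GC box was also found in at least 1 annotated promoter of Igf2, Igf2r and Igfbp2. Of these, Igf2 had the order of lines of Igfbp5 and Igfbp3, so the GC box did not separate the orders. The CCAAT letters were found in Igf1, Igf2 and Igfbp6. These are matches of letters in the window and were not tested as binding sites.

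Of the 8 tested members, 3 were higher and 1 lower in the VE line than in the N line at an adjusted p below 0.05, against 8.46% and 6.99% of all genes. The VE+N line was higher than the N line in 1 member and lower in 4, against 10.2% and 8.91% of all genes. It was also higher than the VE line in 1 and lower in 4, against 4.29% and 5.84% of all genes. The median log2 difference of the 8 members was 0.18 for VE minus N, −0.35 for VE+N minus N and −0.42 for VE+N minus VE, beside −0.02, −0.00 and 0.03 over all genes. With 8 genes, these shares are coarse, and pairs of comparisons share the arrays of 1 line.

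**Figure D1:**
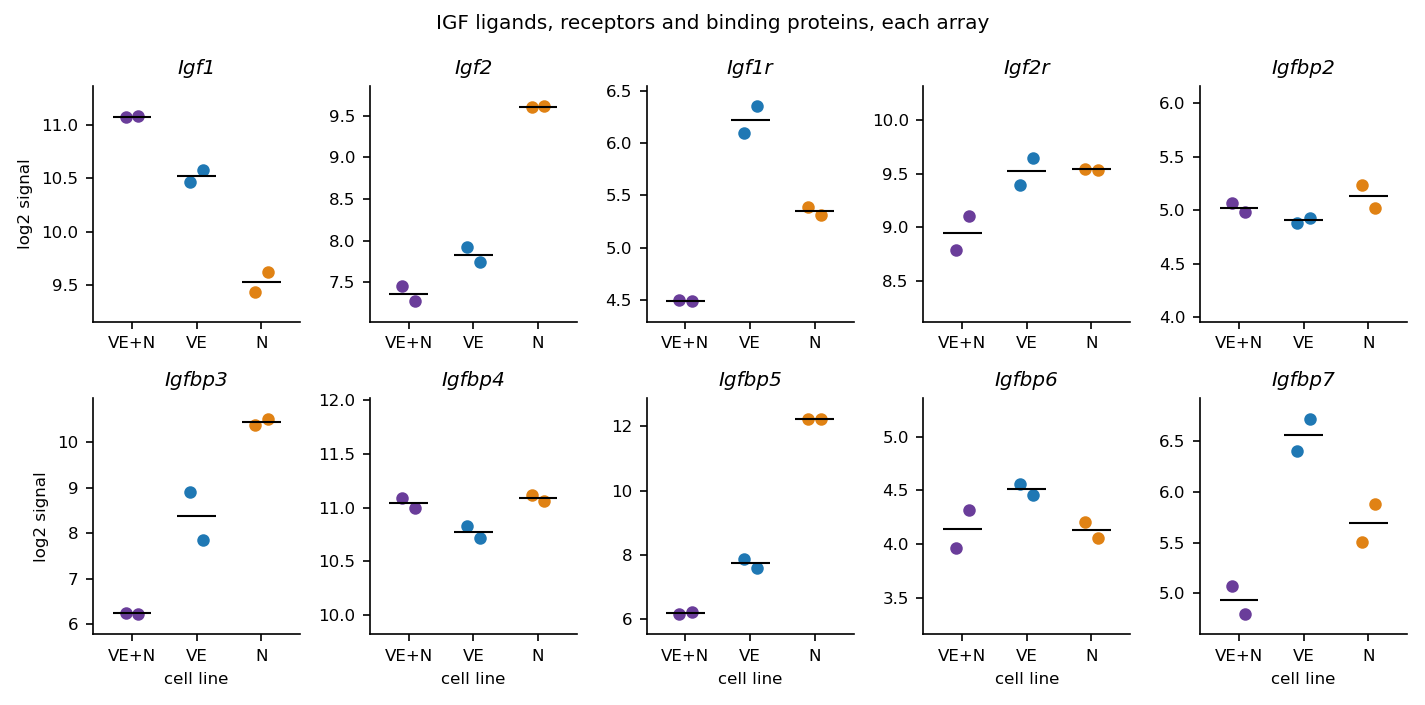
Log2 signal (vertical axis) of the 10 genes in the VE+N, VE and N lines, where each point is 1 array and the black line the mean of 2. Igfbp5 lies at 6.17 and 6.23 in the VE+N line and at 12.23 and 12.24 in the N line, and Igf1 runs in the opposite order, with 11.07 and 11.08 in the VE+N line and 9.44 and 9.62 in the N line.

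Igf1, the ligand with the higher affinity for the IGF1 receptor, had log2 signals of 11.07 and 11.08 in the VE+N line, 10.46 and 10.58 in the VE line and 9.44 and 9.62 in the N line. No 2 lines overlapped, and the lines stood in steps. Igf1 rose by 1.54 ± 0.108 (SE) in the VE+N line against the N line, a 2.91-fold difference (adjusted p = 4.22e-05, limma). It rose by 0.98 ± 0.108 in the VE line against the N line (1.98-fold, adjusted p = 0.000621, limma) and by 0.56 ± 0.108 in the VE+N line against the VE line (1.47-fold, adjusted p = 0.0152, limma). Only the smallest of these steps, between the VE+N and VE lines, lost its call when single arrays were left out. It was 0.55 without VE+N replicate 2, 0.50 without VE replicate 1 and 0.62 without VE replicate 2, and did not pass in these fits on fewer arrays.

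Igf2, the ligand best known as an imprinted fetal growth factor, had 7.45 and 7.27 in the VE+N line, 7.92 and 7.74 in the VE line and 9.60 and 9.61 in the N line. Its order was that of Igf1 turned round. Igf2 fell by 2.24 ± 0.113 in the VE+N line against the N line, 4.73-fold (adjusted p = 6.66e-06, limma), and by 1.78 ± 0.113 in the VE line against the N line, 3.43-fold (adjusted p = 3.55e-05, limma). Between the VE+N and VE lines the difference was −0.47 ± 0.113 (adjusted p = 0.0377, limma). That step did not pass with VE+N replicate 2 left out (adjusted p = 0.144), with VE replicate 1 (0.214) or replicate 2 (0.0898) left out, with either N array left out (0.0705) or after median centring (0.0599).

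**Figure D2:**
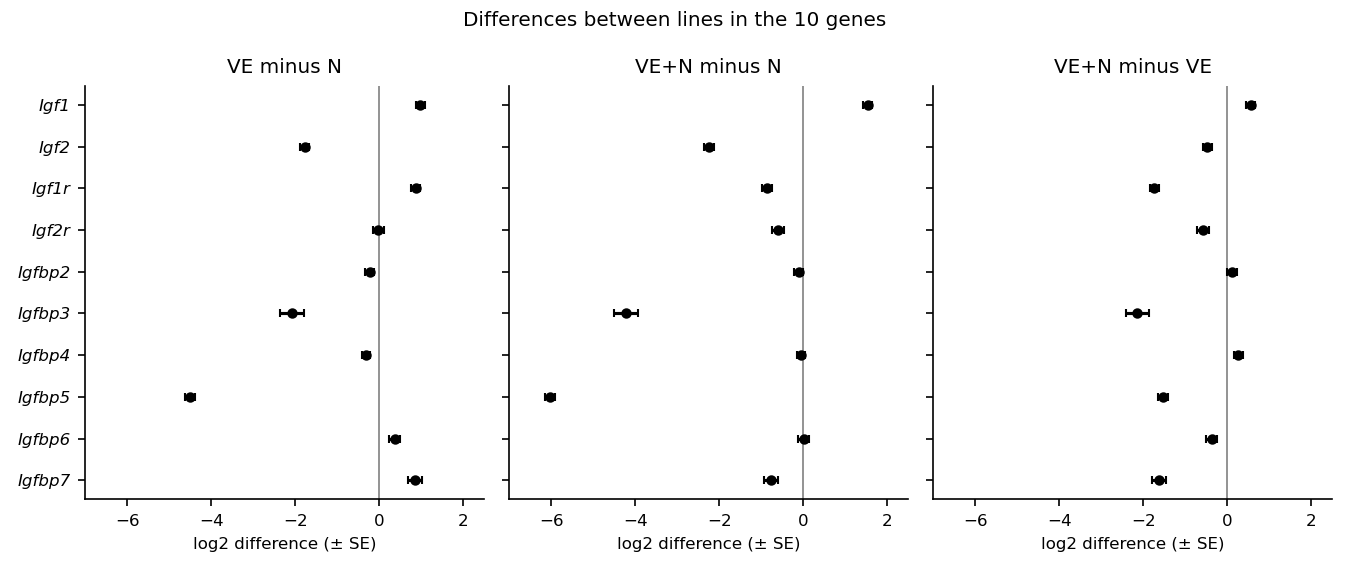
Log2 differences (horizontal axis) between lines for the 10 genes, 1 panel for each comparison, where points are differences of line means over 2 arrays and bars 1 SE on each side. Igfbp5 reaches −6.03 and Igfbp3 −4.22 in VE+N minus N, and Igf1 lies above 0 in every panel.

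Igf1r encodes the signalling receptor. Its log2 signal was 4.50 and 4.49 in the VE+N line, 6.10 and 6.35 in the VE line and 5.39 and 5.31 in the N line. Only the VE arrays lay above their median gene, so the VE+N and N signals were low. Igf1r fell by 1.73 ± 0.113 in the VE+N line against the VE line (3.32-fold, adjusted p = 8.59e-05, limma) and by 0.86 ± 0.113 against the N line (1.81-fold, adjusted p = 0.00125, limma). In the VE line it rose by 0.87 ± 0.113 against the N line (1.83-fold, adjusted p = 0.00147, limma). The line labelled with both cadherins thus had the lowest Igf1r signal with the highest Igf1 signal of the 3 lines.

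Igf2r, the receptor that takes up IGF2, had 8.79 and 9.11 in the VE+N line, 9.40 and 9.65 in the VE line and 9.55 and 9.54 in the N line. The VE and N arrays overlapped, and their difference was −0.02 with a 95% interval from −0.34 to 0.30 (adjusted p = 0.947, limma). Igf2r was lower in the VE+N line than in the N line by 0.60 ± 0.138 on the log2 scale (adjusted p = 0.0185, limma) and than in the VE line by 0.58 ± 0.138 (adjusted p = 0.0356, limma). The first difference was −0.44 and −0.76 without VE+N replicates 1 and 2, and −0.59 and −0.61 without N replicates 1 and 2. It lost the call without VE+N replicate 1 and without either N array, although the N arrays hardly moved it. The second was −0.42 and −0.74 without VE+N replicates 1 and 2, and −0.70 and −0.45 without VE replicates 1 and 2. It lost the call without VE+N replicate 1 and without either VE array. It also lost the call without either N array, where it stayed at −0.58. After median centring it was −0.49 (adjusted p = 0.0665, limma). The insulin receptor Insr, a relative of Igf1r that can pair with it, had means of 9.05, 9.04 and 9.54 in the VE+N, VE and N lines. It differed by −0.49 ± 0.141 in VE+N minus N (adjusted p = 0.0464, limma) and by −0.50 ± 0.141 in VE minus N (adjusted p = 0.0498, limma), both close to the threshold.

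Igfbp5, a binding protein that attaches to extracellular matrix, had 6.17 and 6.23 in the VE+N line, 7.88 and 7.59 in the VE line and 12.23 and 12.24 in the N line. The N arrays stood far above the other 4. The log2 difference was −6.03 ± 0.12 in VE+N minus N, a 65.5-fold difference, and −4.50 ± 0.12 in VE minus N, 22.7-fold. Between the VE+N and VE lines it was −1.53 ± 0.12, 2.89-fold. In bulk RNA, fewer cells that express a gene and less of its RNA in each cell cannot be told apart.

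Igfbp3, the main carrier of IGFs in blood, had 6.25 and 6.23 in the VE+N line, 8.90 and 7.86 in the VE line and 10.39 and 10.52 in the N line. The lines did not overlap, but the VE arrays differed by about 1 log2 unit (SD 0.737, n = 2), the widest spread of any member in any line. The log2 difference was −4.22 ± 0.28 in VE+N minus N, 18.6-fold. It was −2.08 ± 0.28 in VE minus N, or −2.60 without VE replicate 1 and −1.55 without VE replicate 2. In VE+N minus VE it was −2.14 ± 0.28, or −1.62 and −2.66 without those same arrays.

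Igfbp5 is also made by vascular smooth muscle, and mural markers had the same order of lines as Igfbp5 and Igfbp3 in their mean signal. Of 11 mural markers, 3 fell in the VE line and 6 in the VE+N line against the N line, 3 fell in the VE+N line against the VE line, and none rose in any of the 3 comparisons. At the shares of all genes, 0.769, 0.98 and 0.643 of 11 would be lower. Their mean log2 signal was 4.30 to 4.41 in the VE+N line, 5.06 to 5.18 in the VE line and 5.48 to 5.50 in the N line. The median difference of the list was smaller, at −0.21 in VE minus N, −0.54 in VE+N minus N and −0.07 in VE+N minus VE. Not all markers had the order of the mean: Notch3 had its highest mean in the VE line, and Tagln and Myh11 in the VE+N line. Rgs5, Cspg4, Tagln, Kcnj8, Cnn1 and Myh11, all defining genes of pericytes or smooth muscle, lay below the median gene on all 6 arrays. Other defining markers lay above the median gene in the N line and fell in the VE+N line against it: Pdgfrb had means of 4.19, 8.48 and 9.04 in the VE+N, VE and N lines, Acta2 had 4.84, 6.04 and 7.11, Notch3 had 4.68, 7.12 and 6.81, and Abcc9 had 4.34, 4.33 and 6.32. The part of these markers in the Igfbp5 and Igfbp3 differences was not tested.

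Igfbp7, a low-affinity IGF binder and vascular matrix protein, had 5.07 and 4.80 in the VE+N line, 6.40 and 6.72 in the VE line and 5.51 and 5.88 in the N line. The VE+N arrays lay below their median gene. Igfbp7 fell by 1.63 ± 0.171 in the VE+N line against the VE line (3.09-fold, adjusted p = 0.000835, limma). It was 0.77 ± 0.171 lower in the VE+N line than in the N line on the log2 scale (adjusted p = 0.0161, limma), and this did not pass with VE+N replicate 2 (adjusted p = 0.105) or N replicate 2 (0.0986) left out. In VE minus N it was 0.86 ± 0.171 higher (adjusted p = 0.0114, limma), with 0.101 without VE replicate 2 and 0.0701 without N replicate 1.

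Markers of fibroblasts and mesenchyme had the same order of lines as Igfbp7 and Igf1r. Of 9 such markers, 8 rose in the VE line against the N line, 4 fell in the VE+N line against the N line and 8 fell in the VE+N line against the VE line. At the shares of all genes, 0.761 would be higher in the first comparison, and 0.802 and 0.526 lower in the others. Their mean log2 signal was 4.46 to 4.58 in the VE+N line, 7.64 to 7.71 in the VE line and 5.40 to 5.42 in the N line, and Lum and Thy1 lay below the median gene on all 6 arrays. Their part in the Igfbp7 and Igf1r differences was not tested.

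None of the other 3 binding proteins passed the test in any comparison as deposited, and Igfbp2 and Igfbp6 were dim. Igfbp4, which binds both ligands and is the main substrate of the protease PAPPA, had 11.09 and 11.00 in the VE+N line, 10.83 and 10.72 in the VE line and 11.12 and 11.06 in the N line. The VE arrays were the lowest, but the difference of −0.32 from the N line did not pass (95% interval −0.56 to −0.09, adjusted p = 0.0739, limma), nor did 0.27 in VE+N minus VE (0.04 to 0.51, adjusted p = 0.153, limma) or −0.05 in VE+N minus N (−0.28 to 0.18, adjusted p = 0.804, limma). The first passed in limma under 3 alternatives: at −0.43 after median centring (adjusted p = 0.0204), and at −0.32 with a trended and robust prior (0.00577) and without the dimmest 25% of genes (0.0452). The second passed with the trended and robust prior (adjusted p = 0.0209, limma).

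Igfbp2, a binding protein that prefers IGF2, had 5.07 and 4.98 in the VE+N line, 4.88 and 4.93 in the VE line and 5.24 and 5.02 in the N line. Every array lay below its median gene. The 95% intervals of its log2 differences ran from −0.49 to 0.03 in VE minus N, from −0.37 to 0.15 in VE+N minus N and from −0.14 to 0.38 in VE+N minus VE (adjusted p = 0.25, 0.604 and 0.596, limma). Igfbp6, which also prefers IGF2, had 3.96 and 4.32 in the VE+N line, 4.56 and 4.46 in the VE line and 4.21 and 4.06 in the N line, again below the median gene throughout. Its 95% intervals ran from 0.06 to 0.69 in VE minus N, from −0.31 to 0.32 in VE+N minus N and from −0.68 to −0.05 in VE+N minus VE (adjusted p = 0.118, 0.981 and 0.154, limma). Both intervals of Igfbp6 that involve the VE line leave out 0, although the adjusted p did not pass.

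The protein-coding genes next to the binding protein genes on the chromosome were read for their own values. Gene order was taken from GRCm38.p6 among protein-coding genes alone. Igfbp2 and Tnp1, which encodes a sperm chromatin protein, flank Igfbp5 on chromosome 1, and neither passed in any comparison. Igfbp3 lies between Igfbp1 and Tns3 on chromosome 11. Igfbp1, a binding protein made mainly in liver, had means of 4.23, 4.13 and 4.26 in the VE+N, VE and N lines and passed in no comparison. Tns3, a focal adhesion adaptor, had 7.86 and 7.96 in the VE+N line, 8.39 and 8.42 in the VE line and 8.59 and 8.48 in the N line. It differed by −0.63 in VE+N minus N (adjusted p = 0.00338, limma) and by −0.49 in VE+N minus VE (adjusted p = 0.0186, limma).

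Igfbp7 lies between Polr2b, an RNA polymerase subunit gene, and Adgrl3, an adhesion receptor gene, on chromosome 5. Adgrl3 had 4.14 and 4.19 in the VE+N line, 5.62 and 5.43 in the VE line and 4.90 and 4.56 in the N line, the same order as Igfbp7, with all arrays but VE replicate 1 below the median gene. Its differences were −0.57 in VE+N minus N, 0.80 in VE minus N and −1.36 in VE+N minus VE (adjusted p = 0.0225, 0.00574 and 0.000662, limma). Polr2b passed in no comparison. Mrpl23 and Ins2, the protein-coding neighbours of Igf2 on chromosome 7, passed in none either. Genes that do not code for protein were left out of this order, and H19 was not analysed. Top2a, the topoisomerase gene of dividing cells next to Igfbp4 on chromosome 11, had 7.95 and 7.90 in the VE+N line, 9.27 and 9.33 in the VE line and 7.86 and 7.89 in the N line. It rose by 1.42 in VE minus N and was −1.37 in VE+N minus VE (adjusted p = 5.02e-05 and 0.000112, limma), a pattern that Igfbp4 did not have. The measured neighbours of Igf1, Igf1r, Igf2r and Igfbp6, and the other neighbours of Igfbp2 and Igfbp4, passed in no comparison.

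**Figure D3:**
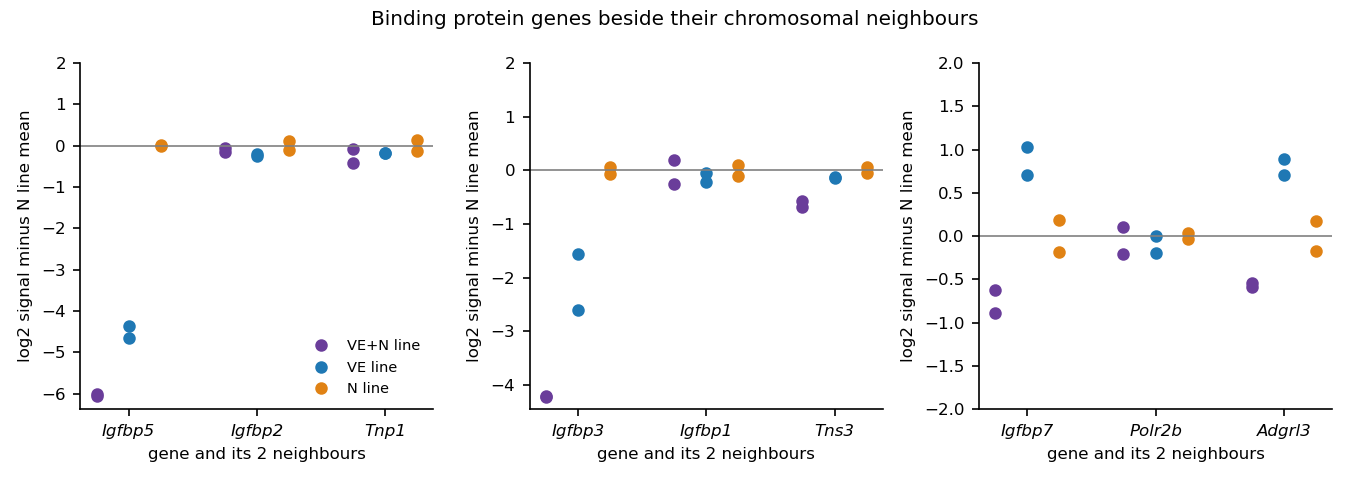
Log2 signal minus the mean of the N line (vertical axis) for Igfbp5, Igfbp3 and Igfbp7, each with its 2 protein-coding chromosomal neighbours. Each point is 1 array of the VE+N, VE or N line. Igfbp5 lies far below 0 in the VE+N and VE lines while Igfbp2 and Tnp1 stay near 0, and Adgrl3 has the order of lines of Igfbp7.

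Genes whose profile was most like a member were sought for the 6 members whose line means spanned over 1 log2 unit. The search covered 18004 protein-coding genes and used the root mean square distance of centred log2 profiles over the 6 arrays. Robo1, a receptor for Slit guidance proteins, was nearest to Igfbp5 at a distance of 0.193, with means of 4.03, 5.38 and 9.63 in the VE+N, VE and N lines, of which the first 2 lie below the median gene. Lilrb4a and Lilr4b followed at 0.449 and 0.521, and as near-identical copies they may share probe signal. Their means in the VE+N and VE lines also lay below the median gene. Igfbp3 had no neighbour as close: Btnl9 lay at 0.268, St8sia4 at 0.396 and Olfml2a at 0.45. The VE+N mean of St8sia4, 4.73, lay below the median gene.

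The profiles of the other 4 members had closer partners, but this distance is not scaled to the span of a profile. Their line means spanned 1.54 to 2.24 log2 units, against 4.22 for Igfbp3 and 6.03 for Igfbp5. Ypel2, Tmem64 and Gpr155 were nearest to Igf1 at 0.08, 0.0803 and 0.0917, and the N mean of Gpr155, 4.98, lay below the median gene. Spata13, Fap and Rnf144a were nearest to Igf2 at 0.0606, 0.0828 and 0.108, and the means of Fap lay below the median gene in all lines. Sh3pxd2b, an invadopodium scaffold, and Mmp2, a gelatinase, were nearest to Igf1r at 0.0749 and 0.0826, and Lhfp followed at 0.111. Olfml3, Egr1 and Serpinf1 were nearest to Igfbp7 at 0.134, 0.149 and 0.153. Their VE+N means of 5.46, 5.27 and 5.26 lay below the median gene. Means of 6.19, 8.10 and 7.12 for Mmp2 in the VE+N, VE and N lines show the order shared with Igf1r. Profiles over 3 lines can be alike for many genes, and these distances are descriptions.

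Of 10 genes for proteases that cut binding proteins and for their inhibitors, 4 rose and 2 fell in the VE line against the N line, 1 rose and 3 fell in the VE+N line against the N line, and 4 fell and none rose in the VE+N line against the VE line. At the shares of all genes, 10 genes would hold 0.846 higher and 0.699 lower in VE minus N, 1.02 and 0.891 in VE+N minus N, and 0.429 and 0.584 in VE+N minus VE. The median log2 difference of the list was 0.22, −0.01 and −0.34 in these comparisons. Htra1, a secreted serine protease that cuts several binding proteins, had 5.09 and 4.58 in the VE+N line, 8.40 and 8.71 in the VE line and 5.80 and 5.82 in the N line. It was far higher in the VE line than in both others, and its VE+N arrays lay below the median gene, with log2 differences of 2.75 ± 0.177 in VE minus N and −3.72 ± 0.177 in VE+N minus VE (adjusted p = 3.9e-05 and 1.74e-05, limma). In VE+N minus N it was −0.98 ± 0.177 (adjusted p = 0.00633, limma).

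Stc1, the gene of a stanniocalcin that blocks pappalysin proteases, had 9.72 and 9.70 in the VE+N line, 10.75 and 10.59 in the VE line and 12.10 and 12.14 in the N line. Its order of lines was that of Igf2, Igfbp3 and Igfbp5. It fell by 2.41 ± 0.103 in the VE+N line and by 1.45 ± 0.103 in the VE line against the N line, and by 0.96 ± 0.103 in the VE+N line against the VE line (adjusted p = 3.29e-06, 6.56e-05 and 0.000905, limma). The related Stc2 passed in VE+N minus N alone, at −0.59 ± 0.116 (adjusted p = 0.00944, limma). Pappa, which codes for the pappalysin that cuts IGFBP4, was dim on all arrays, with 3.44 and 3.67 in the VE+N line, 4.16 and 4.11 in the VE line and 3.32 and 3.41 in the N line. It rose by 0.77 ± 0.112 in the VE line against the N line (adjusted p = 0.00259, limma) and was −0.58 ± 0.112 in VE+N minus VE (adjusted p = 0.0149, limma).

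Adam12, a metalloprotease shown in human to cut IGFBP3 and IGFBP5, had 7.63 and 7.55 in the VE+N line, 7.98 and 7.86 in the VE line and 5.72 and 5.97 in the N line. Both lines labelled with VE-cadherin were higher than the N line, by 1.74 ± 0.118 in VE+N and 2.07 ± 0.118 in VE (adjusted p = 3.34e-05 and 2.13e-05, limma). Adam28, a relative shown in human to cut IGFBP3 and below the median gene in the VE+N and N lines, rose by 1.1 ± 0.182 in the VE line against the N line and was −1.1 ± 0.182 in VE+N minus VE (adjusted p = 0.00481 and 0.00706, limma). The lysosomal protease gene Ctsd, at −0.40 ± 0.0972 in VE minus N, was the other gene lower there (adjusted p = 0.0282, limma).

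**Figure D4:**
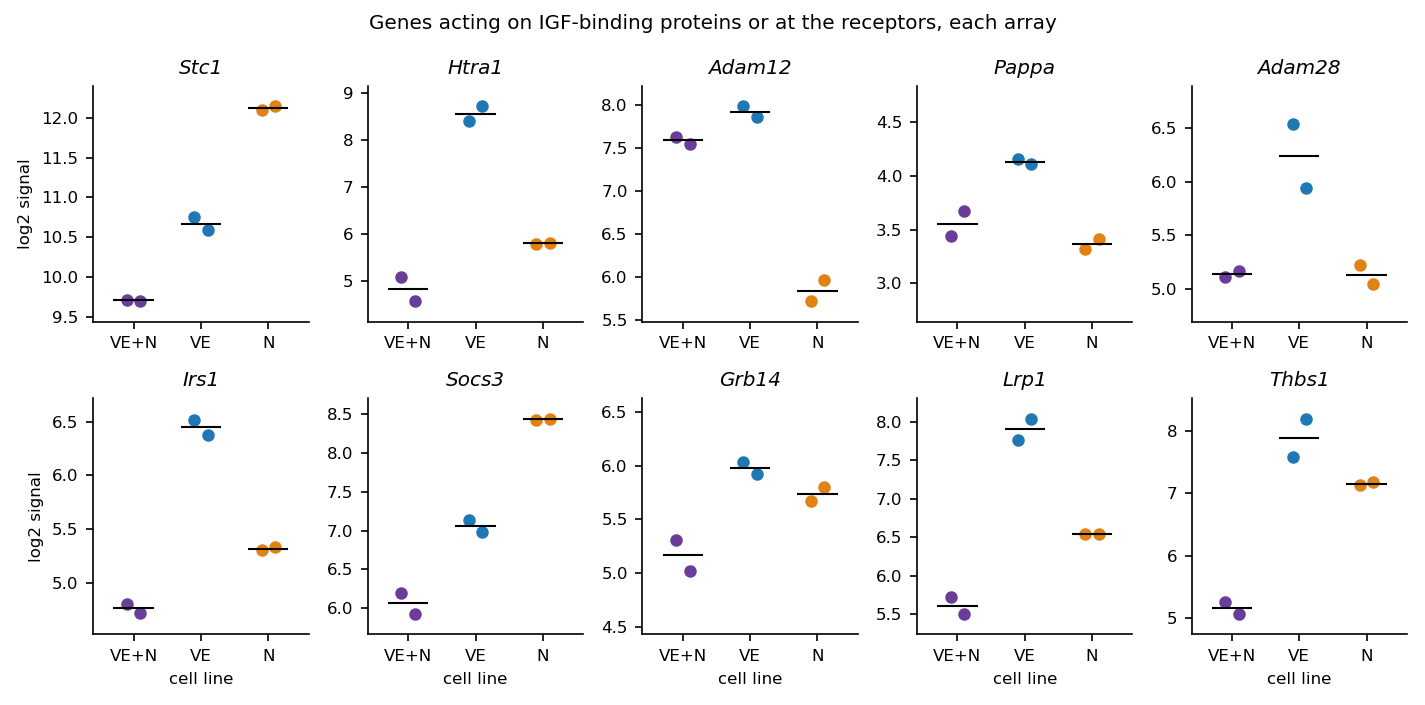
Log2 signal (vertical axis) of 10 genes from the lists of proteases, receptor adaptors and extracellular partners in the VE+N, VE and N lines, where each point is 1 array and the black line the mean of 2. Stc1 and Socs3 are highest in the N line, Htra1, Irs1 and Lrp1 in the VE line, and Adam12 is lowest in the N line.

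Of 17 measured genes for adaptors and inhibitors at the receptors, 2 rose and 2 fell in VE minus N. In VE+N minus N 1 rose and 6 fell, and in VE+N minus VE 6 fell and none rose. At the shares of all genes this list would hold 1.44 and 1.19, 1.73 and 1.52, and 0.729 and 0.993, so its counts in VE minus N lay near the background. Irs1, the gene of a principal docking protein of the IGF1 receptor, had 4.80 and 4.72 in the VE+N line, 6.52 and 6.38 in the VE line and 5.30 and 5.33 in the N line. This was the order of lines of Igf1r itself, and only the VE arrays were above the median gene. Irs1 was −1.69 ± 0.102 in VE+N minus VE, −0.55 ± 0.102 in VE+N minus N and 1.13 ± 0.102 in VE minus N (adjusted p = 6.43e-05, 0.00671 and 0.000215, limma). Irs2, a second docking protein gene, passed only in VE+N minus VE, at −0.51 ± 0.115 (adjusted p = 0.0276, limma), and Irs4 likewise at −1.16 ± 0.27 (adjusted p = 0.0328, limma). Irs2 lay below the median gene on all 6 arrays, and Irs4 on all but VE replicate 2, with 5.02 and 5.78 in the VE line.

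Socs3, the gene of a cytokine-induced inhibitor of receptor signalling, had 6.20 and 5.93 in the VE+N line, 7.13 and 6.98 in the VE line and 8.43 and 8.44 in the N line. It fell by 2.37 ± 0.121 in the VE+N line and by 1.38 ± 0.121 in the VE line against the N line, and by 0.99 ± 0.121 in the VE+N line against the VE line (adjusted p = 7.08e-06, 0.000189 and 0.0017, limma). Its relative Socs2, known in mouse for restraining growth hormone signalling, rose by 0.64 ± 0.138 in VE+N minus N (adjusted p = 0.0135, limma). Grb14, which encodes an adaptor that inhibits the insulin receptor, was −0.57 ± 0.126 in VE+N minus N and −0.81 ± 0.126 in VE+N minus VE (adjusted p = 0.0152 and 0.00526, limma), with its VE+N arrays below the median gene. Sh2b2, an adaptor gene also below the median gene in the VE+N line, was −0.85 ± 0.0935 in VE+N minus N and −0.57 ± 0.0935 in VE minus N (adjusted p = 0.000478 and 0.00466, limma). Gab1, a docking protein gene, rose by 0.40 ± 0.112 in VE minus N (adjusted p = 0.0479, limma).

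In the PI3K, AKT and mTOR pathway below the receptors, 21 genes were measured, with 4 higher and 2 lower in VE minus N, 4 higher and 5 lower in VE+N minus N, and 1 higher and 2 lower in VE+N minus VE. The shares of all genes give 1.78 and 1.47, 2.13 and 1.87, and 0.901 and 1.23, so the counts in the last comparison lay near the background. The list did not move one way: its median differences were 0.06, 0.02 and −0.04. Pik3r3, a regulatory subunit of PI3K, had 10.42 and 10.66 in the VE+N line, 9.89 and 10.02 in the VE line and 9.26 and 9.33 in the N line. Its steps had the order of Igf1, with 1.25 ± 0.117 in VE+N minus N, 0.67 ± 0.117 in VE minus N and 0.58 ± 0.117 in VE+N minus VE (adjusted p = 0.000203, 0.00645 and 0.0175, limma).

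Akt2, a kinase activated by PI3K, was higher than in the N line by 0.85 ± 0.1 in VE+N and 0.79 ± 0.1 in VE (adjusted p = 0.000678 and 0.00136, limma). Inpp5d, a phosphatase of the PI3K product best known in blood cells, was higher by 1.00 ± 0.0946 in VE+N and 0.89 ± 0.0946 in VE (adjusted p = 0.000215 and 0.000525, limma). Pik3r2, another regulatory subunit, rose by 0.45 ± 0.104 in VE minus N alone (adjusted p = 0.0242, limma). Mtor, the kinase of both mTOR complexes, fell by 0.84 ± 0.102 in VE+N minus N, by 0.40 ± 0.102 in VE minus N and by 0.43 ± 0.102 in VE+N minus VE (adjusted p = 0.000815, 0.0332 and 0.0346, limma). Eif4ebp1, a translation repressor that mTOR inactivates, was −0.41 ± 0.0966 in VE+N minus VE (adjusted p = 0.0341, limma).

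Among 6 measured genes for regulators of Igf2 expression or mRNA, 2 rose and 1 fell in VE minus N. In VE+N minus N 2 rose and 2 fell, and in VE+N minus VE 2 rose and 1 fell. The shares of all genes give 0.507 and 0.419, 0.609 and 0.535, and 0.257 and 0.351 for 6 genes. Plag1, a zinc finger gene whose human counterpart activates IGF2 promoters, had 7.0 and 7.28 in the VE+N line, 6.27 and 6.35 in the VE line and 4.67 and 4.97 in the N line. Igf2 stood in the opposite order. Plag1 rose by 2.32 ± 0.139 in VE+N minus N, 1.49 ± 0.139 in VE minus N and 0.83 ± 0.139 in VE+N minus VE (adjusted p = 1.75e-05, 0.000269 and 0.00783, limma). Plagl1, an imprinted relative, had 6.69 and 6.57 in the VE+N line, 6.31 and 6.54 in the VE line and 4.69 and 4.70 in the N line. Both genes lay below the median gene in the N line. The rises of Plagl1 against the N line were 1.94 ± 0.113 in VE+N and 1.73 ± 0.113 in VE (adjusted p = 1.46e-05 and 4.14e-05, limma).

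The RNA-binding protein gene Igf2bp3, whose product binds Igf2 mRNA, had 5.49 and 5.62 in the VE+N line, 5.10 and 5.07 in the VE line and 6.54 and 6.53 in the N line. The VE arrays and VE+N replicate 1 lay below the median gene. Like Igf2 it was highest in the N line, but it was higher in the VE+N line than in the VE line by 0.47 ± 0.0996 (adjusted p = 0.0213, limma). Against the N line it fell by 0.98 ± 0.0996 in VE+N and by 1.45 ± 0.0996 in VE (adjusted p = 0.000315 and 5.64e-05, limma). Its relative Igf2bp1, dim on all arrays, was −0.91 ± 0.165 in VE+N minus N and −0.93 ± 0.165 in VE+N minus VE (adjusted p = 0.0064 and 0.00972, limma). H19, the imprinted partner of Igf2, was not analysed here.

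Of 12 measured genes whose proteins are reported to bind IGF-binding proteins outside the cell, 6 rose and 1 fell in VE minus N. In VE+N minus N 3 rose and 4 fell, and in VE+N minus VE 4 fell and none rose. The shares of all genes give 1.01 and 0.838, 1.22 and 1.07, and 0.515 and 0.701. The endocytic receptor gene Lrp1 had 5.72 and 5.51 in the VE+N line, 7.77 and 8.04 in the VE line and 6.55 and 6.54 in the N line. It was −2.29 ± 0.127 in VE+N minus VE, −0.93 ± 0.127 in VE+N minus N and 1.36 ± 0.127 in VE minus N (adjusted p = 4.03e-05, 0.00148 and 0.000262, limma). The matrix genes Thbs1 (thrombospondin) and Fn1 (fibronectin) had that same order of lines.

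Thbs1 had 5.25 and 5.07 in the VE+N line, 7.58 and 8.19 in the VE line and 7.13 and 7.17 in the N line, and its VE+N arrays lay below the median gene. It fell by 2.73 ± 0.186 in VE+N minus VE and by 2.00 ± 0.186 in VE+N minus N (adjusted p = 0.000105 and 0.000196, limma), and rose by 0.73 ± 0.186 in VE minus N (adjusted p = 0.0333, limma). Fn1 fell by 1.52 ± 0.0961 in VE+N minus VE and by 0.84 ± 0.0961 in VE+N minus N, and rose by 0.68 ± 0.0961 in VE minus N (adjusted p = 7.42e-05, 0.000571 and 0.00232, limma). Vtn (vitronectin), dim on all arrays, was 0.99 ± 0.168 in VE minus N and −1.0 ± 0.168 in VE+N minus VE (adjusted p = 0.00573 and 0.00775, limma). Cav1, the main caveolar coat gene, instead rose by 1.24 ± 0.1 in VE+N and by 0.91 ± 0.1 in VE against the N line (adjusted p = 9.07e-05 and 0.000617, limma).

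Igf2r also carries lysosomal enzymes, and of 9 measured genes for such cargo and for the enzymes that tag it, 1 rose and 6 fell in VE minus N, 1 rose and 5 fell in VE+N minus N, and 1 fell and none rose in VE+N minus VE. The shares of all genes give 0.761 and 0.629, 0.914 and 0.802, and 0.386 and 0.526, near the count in the last comparison. The median differences were −0.57, −0.73 and −0.05. The cathepsin gene Ctsz had 6.55 and 6.33 in the VE+N line, 9.18 and 9.10 in the VE line and 9.57 and 9.54 in the N line. It fell by 3.11 ± 0.111 in VE+N minus N and by 2.70 ± 0.111 in VE+N minus VE (adjusted p = 1.26e-06 and 9.52e-06, limma), and by 0.42 ± 0.111 in VE minus N (adjusted p = 0.0405, limma).

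The cathepsin genes Ctsl and Ctsb and the glucuronidase gene Gusb fell in both lines against the N line. In VE+N minus N they fell by 1.05 ± 0.106, 0.75 ± 0.124 and 0.96 ± 0.113 (adjusted p = 0.000297, 0.0039 and 0.000676, limma). In VE minus N they fell by 0.67 ± 0.106, 0.76 ± 0.124 and 0.91 ± 0.113 (adjusted p = 0.00385, 0.00453 and 0.00116, limma). Gnptab, which encodes the enzyme that starts the mannose 6-phosphate tag, rose by 1.21 ± 0.115 in VE+N and by 0.82 ± 0.115 in VE against the N line (adjusted p = 0.00022 and 0.00221, limma). Cd68, a lysosomal gene of macrophages, was the 1 of 5 haematopoietic markers called, and it was lower in all 3 comparisons. Ptprc, Itgam, Spi1 and Gata1 lay below the median gene on all 6 arrays, and the part of haematopoietic cells in the lysosomal differences was not tested.

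Of the other IGF and insulin family genes, Insr was the only one called of 6, and Igfbp1, Igfbpl1, Igfals, Ins2 and Insrr lay below the median gene on all 6 arrays. At the shares of all genes, 0.419 of 6 would be lower in VE minus N and 0.535 in VE+N minus N, so this 1 call lay near the background. All 6 endoderm and hepatocyte markers and all 5 pluripotency markers lay below the median gene on every array, with mean log2 signals of 3.70 to 3.88 and 3.77 to 4.09 in the VE+N line, 3.79 to 3.81 and 3.84 in the VE line and 3.75 to 3.77 and 3.77 to 3.91 in the N line. Of 5 epithelial markers, Krt19 alone was called, higher in VE minus N, where the share of all genes gives 0.423 of 5. Endothelial markers moved with Igf1 in part: 2 rose and 2 fell in VE minus N, 5 rose and none fell in VE+N minus N, and 6 rose and none fell in VE+N minus VE, of 12, where the shares of all genes give 1.01 and 0.838, 1.22 and 1.07, and 0.515 and 0.701. Their part in the Igf1 differences was not tested. The markers and Top2a were singled out by name after their values were seen.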

How the data were processed

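The 3 lines were profiled on 6 Mouse Gene 1.0 ST arrays (Affymetrix), 2 for each line, grouped by the line in their titles. Each array started from 150 ng of total RNA, per the labels. The authors deposited log2 values from RMA in Partek 6.3, per the submitters' processing notes. The log2 scale was inferred from the value range, and the values were used without another normalization or a filter. A genome build for the values is not given in the sources used here. Read depth does not apply to arrays, and precision is limited by their number.

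The table holds 35556 probe sets. A single gene symbol was given to 21789, no symbol to 12146 and more than 1 to 1621, and none of the last named a member. Symbols were updated by Entrez identifier (21698) or accession (3), or kept (88). For 1001 genes with several probe sets the one with the highest mean was used, which left 19936 genes.

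Line means were compared with limma 3.58.1 in R 4.3.3 over all 6 arrays (residual degrees of freedom 3, prior 4.89). The Benjamini-Hochberg adjustment ran over all genes in each comparison, and genes were called at an adjusted p below 0.05. Values after ± are SE unless stated. The fit was tested on simulated data.

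The members and gene lists were chosen with earlier results of these data known. Genes named are the members, Cdh2, Cdh5, Igfbp1, called members of each pathway list (all if at most 4 in a comparison, otherwise the 4 largest), Insr, Irs1, Irs2 and Pappa, the neighbouring genes, and the 3 profiles nearest to a member. Listed genes without a probe set of their own were not analysed here. Promoters are from RefSeq, GRCm38.p6, and all 10 members matched.

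Alternatives were median centring, quantile normalization again, a replicate block, fits on 4 arrays, a trended and robust prior, the methods' analysis of variance, removal of the dimmest 25% of genes, the mean of all probe sets, and each array left out in turn.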

Additional observations from a re-analysis of the deposited data

How the results depend on the processing

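Of 336 recomputed differences of the 8 tested members, 294 kept their direction and their side of the threshold, 32 lost the call, 4 gained it and 6 turned. All 84 of Igfbp3 and Igfbp5, which carry no test, kept their direction. Only median centring, quantile normalization again and leaving out an array of a compared line could change a difference. The other settings left it as it was, so its direction was fixed there and only its SE and p could move. Leaving out an array of the third line repeated the fit on 4 arrays. The turned ones were small and uncalled: Igf2r in VE minus N was 0.04 after quantile normalization again and ran from −0.15 to 0.10 with 1 array left out, Igfbp2 in VE+N minus N ran from −0.22 to 0.01, and Igfbp6 in VE+N minus N was −0.01 after median centring and ran from −0.17 to 0.19. Of the 8 tested members, 4, 5 and 5 were called in the order VE minus N, VE+N minus N, VE+N minus VE, and of 81 listed pathway genes 34, 38 and 21. With the replicate block these counts were again 4, 5 and 5, and 34, 38 and 21. Over all 19936 genes the calls were 3079, 3802 and 2020 as deposited, and 3056, 3864 and 2055 with the block. Deviations of same-numbered arrays correlated across genes at −0.005 (VE and N), 0.123 (VE+N and N) and 0.069 (VE+N and VE). With 1 deviation for each line, these correlations cannot settle whether same-numbered arrays share anything beyond a number. An ordinary analysis of variance called 2, 3 and 1 members and 18, 24 and 6 listed genes. Over all genes it called 1276, 1867 and 311, so calls fell there as well. In VE+N minus VE, median centring and the fit on 4 arrays each called 3 members. Over all genes they called 2523 and 1683 in that comparison. Leaving out 1 array gave 3 to 4, 3 to 5 and 2 to 4 members and 22 to 32, 26 to 34 and 11 to 21 listed genes. Median centring moved the median of all genes to −0.13 in VE minus N and to 0.12 in VE+N minus VE, beside −0.02 and 0.03 as deposited. At a fold over 2 and an unadjusted p below 0.05, the methods' analysis of variance called Igf2 in VE minus N, Igf1 and Igf2 in VE+N minus N, and Igf1r and Igfbp7 in VE+N minus VE. The causes of lost calls were not tested, except that leaving out an array lowers the number of samples. Igfbp2, Igfbp6 and most arrays of Igf1r lay below the median gene, which limits what their differences show.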
